A study of Mus musculus with 24 samples.

Results

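Normal (N) organoids are cultures of ductal cells isolated from the pancreas of wild-type C57Bl/6J mice and grown in Matrigel, a gel of basement membrane proteins. The 6 libraries described here are the polysome-associated and the total mRNA of 3 lysates of N organoids that received only vehicle (DMSO) for 1 h, out of 24 libraries in the whole series. The labels call this treatment Control and number the lysates 1 to 3, and the 2 libraries of a lysate were matched by that number. The other 18 libraries come from N organoids given 10 nM of CR-31 (a rocaglate that blocks the helicase eIF4A) for the same time, and from pancreatic tumour organoids of a mouse model that carries p53 R172H (KP) given vehicle or CR-31, with 3 lysates in each group. Elongation was stopped with cycloheximide, which all groups received, and each lysate was spread on a sucrose gradient. The fractions with 3 or more ribosomes per mRNA were pooled as polysome-associated mRNA, and total mRNA came from lysate set aside beforehand. Nothing in the labels says whether the 3 lysates came from different mice or from 1 line of organoids. The tests therefore cannot be said to measure the spread between mice. The spread behind each standard error (SE) and p-value was estimated from all 24 libraries together, not from these 3 lysates alone.

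An mRNA is read by several ribosomes at once, and the number it carries depends on how often ribosomes start, how fast they move and how long the coding sequence is. Some mRNAs are known to be kept from ribosomes by structures or sequences near their 5′ end. Ferritin mRNAs carry an iron-responsive element that an iron regulatory protein can bind, and mRNAs of ribosomal proteins start with a tract of pyrimidines (the 5′ terminal oligopyrimidine, or TOP, motif) that links them to growth signalling. The comparison asks which mRNAs were over- or under-represented in the pool of 3 or more ribosomes in unperturbed normal cells. The log2 ratio used below is the log2 of polysome-associated over total mRNA in CPM (counts scaled to a common library total), so it is relative to the other mRNAs of the library and does not give the share of an mRNA that was on ribosomes.

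The iron-responsive elements printed here were read from the GRCm38 genome over the GENCODE M21 models of the mRNAs whose ratios lead the account below, with the bulged C and the 6-base loop in capitals. Those of Fth1, Ftl1 and Slc40a1 lie in the 5′ untranslated region (UTR), at chr19:9982732-9982759 on the plus strand for Fth1, chr7:45459780-45459807 on the minus strand for Ftl1 and chr1:45925466-45925493 on the minus strand for Slc40a1. That of Tfrc lies in the 3′ UTR at chr16:32631219-32631246 on the plus strand and is the first of 4 such matches there.
Fth1: ttcctgCttcaaCAGTGCttgaacggaa
Ftl1: gtcttgCttcaaCAGTGTttgaacggaa
Slc40a1: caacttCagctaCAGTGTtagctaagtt
Tfrc: aattatCggaagCAGTGCcttccataat
The search asked for a C, 5 bases, CAGTG and A, C or T, with the 5 bases on each side of the loop able to pair, on the mRNA strand only. Of the 11400 tested genes with a coding model, 9 (0.0789%) had a match in the 5′ UTR and 55 (0.482%) in the 3′ UTR.

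Counted reads ranged from 75799146 to 139073081 in the polysome-associated libraries and from 115442314 to 144504307 in the total libraries. The chi-square per gene between replicates of a fraction averaged 487.8 to 1512, far above the value near 1 that counting error alone gives. Lysate 3 stood apart. Across genes its log2 ratios had a Pearson r of 0.12 with those of lysate 1 and 0.11 with those of lysate 2, while lysates 1 and 2 had an r of 0.633 with each other. The library labelled polysome-associated, vehicle, replicate 3 had an r of log2 CPM of 0.986 with the library labelled total, CR-31, replicate 3, and of 0.964 with the total library of its own label. The library labelled total, vehicle, replicate 3 had an r of 0.984 with the one labelled polysome-associated, CR-31, replicate 3, while the CR-31 pair as labelled had 0.962. The ratio of lysate 3 may therefore not set the 2 fractions of 1 vehicle lysate against each other, which was not tested. Fos, an immediate early gene, stood at 1707 CPM in the library labelled vehicle polysome 3 and at 2403 CPM in the one labelled CR-31 total 3, against 32.04 to 124.4 CPM in the other 10 N libraries. The labels were kept as given, and the main results are given with all 3 lysates and without lysate 3. Lysates 1 and 2 were on lane 5 and lysate 3 on lane 6 of the same run. In vehicle-treated N, lane and lysate 3 therefore cannot be told apart, and the part of the lane was not tested. Lysate 2 of CR-31-treated N was also on lane 6, and its ratios had an r of 0.59 with those of CR-31 lysate 1 on lane 5 and of 0.164 with those of CR-31 lysate 3 on lane 6, with Fos at 39.36 and 47.76 CPM.

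All 10 duct markers, such as Krt19, Epcam and Sox9, had counts in all 6 libraries, with a sum of 9965 to 14930 CPM. The 10 acinar markers summed to 4.095 to 5.425 CPM, nearly all of it Cela1. The 7 endocrine markers summed to at most 0.149 CPM with Ins1, Ins2 and Gcg at 0, and the 8 fibroblast markers summed to 0.4772 to 1.075 CPM. The 7 immune markers summed to 16.86 to 30.96 CPM through Cd68 and Csf1r, while Ptprc had at most 10 counts in a library. The 5 endothelial markers summed to at most 0.4374 CPM. The part of such cells in the ratios was not tested. In bulk RNA, fewer cells of a type and less RNA per cell cannot be told apart.

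In vehicle-treated N organoids, 1737 of 11438 tested genes (15.2%) differed between the fractions at an adjusted p under 0.25, the threshold of the study's methods, which is called a change here. Of these, 1010 (8.83%) were higher and 727 (6.36%) lower in polysome-associated mRNA, and 1633 had the same direction in 3 of 3 lysates. At an adjusted p under 0.05, 410 genes (3.58%) were called, 361 higher (3.16%) and 49 lower (0.428%). Most ratios were small, with a median size of 0.21 on the log2 scale. Leaving out a lysate changed these counts in both directions. Without lysate 2, 187 genes were higher and 13 lower, and without lysate 1, 851 and 580. Without lysate 3, 2527 genes (22.1%) were called, 1414 higher (12.4%) and 1113 lower (9.73%). The fits with and without lysate 3 shared 852 higher and 400 lower genes, and 0 genes were called in opposite directions, while 485 calls of the full fit were lost without lysate 3.

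Ferritin mRNAs were among the least loaded of the tested mRNAs. Fth1, the heavy chain of the iron store ferritin, had 2147, 3340 and 3352 CPM in total mRNA of lysates 1, 2 and 3 and 1209, 1383 and 1276 CPM in polysome-associated mRNA. Ftl1, the light chain, had 7483, 7619 and 8885 CPM in total and 3640, 3186 and 3309 CPM in polysome-associated mRNA. For both genes all 3 total libraries lay above all 3 polysome-associated ones. The fitted log2 ratio of Fth1 was -1.17 ± 0.16 (SE from the fit to all 24 libraries, adjusted p = 0.0108), a fold of 0.446. That of Ftl1 was -1.24 ± 0.19 (adjusted p = 0.0134), a fold of 0.423. Without lysate 3 the values were -1.02 (adjusted p = 0.0220) and -1.12 (adjusted p = 0.0226).

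**Figure D1:**
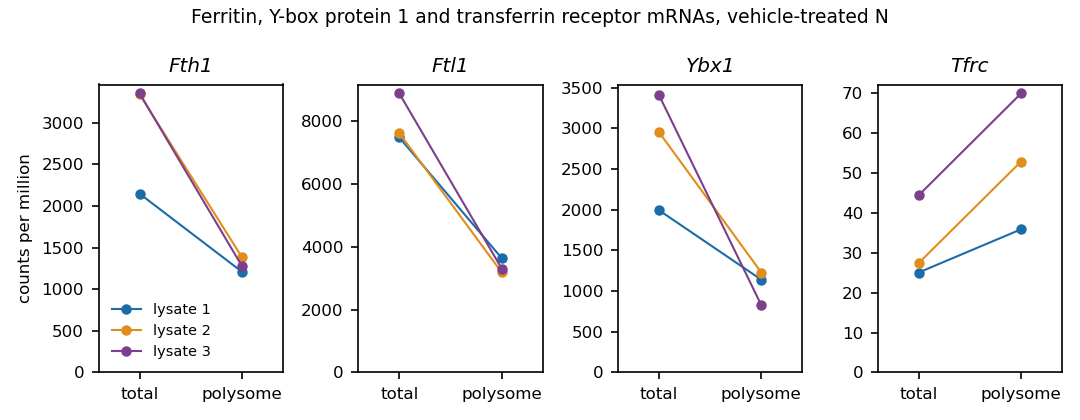
CPM (linear axis from 0) of Fth1, Ftl1, Ybx1 and Tfrc in total and polysome-associated mRNA of vehicle-treated N organoids, each line joining the 2 libraries of a lysate. Fth1, Ftl1 and Ybx1 fell and Tfrc rose from total to polysome-associated mRNA in 3 of 3 lysates.

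Tfrc, the transferrin receptor that brings iron into the cell, carries its elements in the 3′ UTR, where the bound protein is known to protect the mRNA. Its levels were 25.07, 27.43 and 44.44 CPM in total and 35.91, 52.93 and 70.01 CPM in polysome-associated mRNA. Each lysate had more in the polysome pool, although the ranges of the 2 fractions overlapped. The fitted log2 ratio was 0.71 ± 0.25 (adjusted p = 0.145; 0.76 and 0.173 without lysate 3). Slc40a1, the iron exporter ferroportin with an element in its 5′ UTR, had a log2 ratio of -0.38 ± 0.17 and did not pass (adjusted p = 0.275), and Slc11a2, an iron importer, had -0.24 (adjusted p = 0.380). Of the 6 listed mRNAs with a known element, 3 fell (Fth1, Ftl1 and the hypoxia factor Epas1 at -0.41) and 1 rose, against 6.36% lower and 8.83% higher of all genes, and without lysate 3 the call of Epas1 was lost.

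Among the other genes whose 5′ UTR held a match, Nfib, a transcription factor, had 97.11, 63.8 and 75.36 CPM in total and 250.9, 332.1 and 160 CPM in polysome-associated mRNA, with no overlap. Its log2 ratio was 1.61 ± 0.26 (adjusted p = 0.0135), and that of Malt1, a protease of immune signalling, was 0.75 ± 0.25 (adjusted p = 0.126). Alas2, Ecd, Eif2s1 and Ppp1r1b had log2 ratios between -0.24 and 0.34 and passed no test, and Alas2 was at only 0.025 to 0.216 CPM. So genes with a letter match in the 5′ UTR had ratios in both directions.

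Ybx1, a Y-box protein that packages mRNA in the cytoplasm, had 1993, 2952 and 3408 CPM in total and 1139, 1227 and 824.7 CPM in polysome-associated mRNA. The fractions did not overlap, and the log2 ratio was -1.37 ± 0.21 (adjusted p = 0.0134; -1.01 and 0.0226 without lysate 3). Its relative Ybx3 fell by 0.74 (adjusted p = 0.0424), and was at -0.40 without lysate 3 (adjusted p = 0.167). Ybx2, the third member of the family, was at 2.52 to 5.64 CPM and had a log2 ratio of -0.29 that did not pass (adjusted p = 0.47).

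The lowest ratio of the rule for named genes was that of Krt15, a keratin of basal and progenitor cells of stratified epithelia. It had 21.88, 17.32 and 5.491 CPM in total and 0.3344, 0.4772 and 2.221 CPM in polysome-associated mRNA. The fractions did not overlap, and the gap was far smaller in lysate 3 (log2 ratio -1.30) than in lysates 1 and 2 (-6.01 and -5.17). The fitted value was -4.23 ± 1.30 (adjusted p = 0.0963; -5.59 and 0.0343 without lysate 3). Of the abundant keratins of simple epithelia, Krt8 was at -0.03 and Krt19 at -0.20 without a call, and Krt18 fell by 0.40 (adjusted p = 0.164). Lysate 3 had 0.67 for Krt8 and 0.47 for Krt19, while lysates 1 and 2 had -0.31 to -0.56. Without lysate 3, Krt19 was called lower (-0.51, adjusted p = 0.126), as was Krt18 (-0.54, adjusted p = 0.0555), and Krt8 was at -0.34 without a call.

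Lars2, the mitochondrial leucyl-tRNA synthetase, had a log2 ratio of -2.15 ± 0.72 (adjusted p = 0.122), with total levels that spread from 104.6 to 1818 CPM between lysates. Arpc1a, a subunit of the actin-branching Arp2/3 complex, fell by 1.08 (adjusted p = 0.0208) and kept the call without lysate 3 (-0.65, adjusted p = 0.0645). Ly6i, a surface protein of the Ly6 family, fell by 0.90 (adjusted p = 0.0215; -0.64 and 0.0926 without lysate 3). Ap3s1, Hist1h2bf, Prkrir and 2300009A05Rik had values from -0.95 to -0.83. The calls of Ap3s1, Prkrir and 2300009A05Rik were lost without lysate 3 (adjusted p = 0.542, 0.472 and 0.481), and their ratios were -1.84 to -2.09 in lysate 3 and -0.18 to -0.58 in lysates 1 and 2.

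Tspan6, a tetraspanin with 4 membrane passes, had 2.466, 48.01 and 17.76 CPM in total and 1.382, 19.07 and 12.79 CPM in polysome-associated mRNA, lower in each lysate. Its log2 ratio was -0.88 ± 0.20 (adjusted p = 0.0241; -1.07 and 0.0245 without lysate 3). The related Cd9 had 384.2, 569.4 and 464.3 CPM in total and 234.6, 223.2 and 402.7 CPM in polysome-associated mRNA, a log2 ratio of -0.76 ± 0.18 (adjusted p = 0.0363). Over 22 tested tetraspanins, a list drawn up after values were seen, 7 fell (31.8%, against 6.36% of all genes) and 0 rose, and the median was -0.21 (all genes -0.05). Without lysate 3, 9 were lower and the median was -0.40. The p24 cargo receptors, which sort proteins between endoplasmic reticulum and Golgi, were likewise listed afterwards. Of 9 tested, 3 were lower (33.3%) and 1 higher (11.1%), against 6.36% and 8.83% of all genes. Tmed10 fell to -0.55 (adjusted p = 0.0392), and Tmed5 was the higher one at 0.95 (adjusted p = 0.0594). Without lysate 3, 2 were lower and 2 higher.

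**Figure D2:**
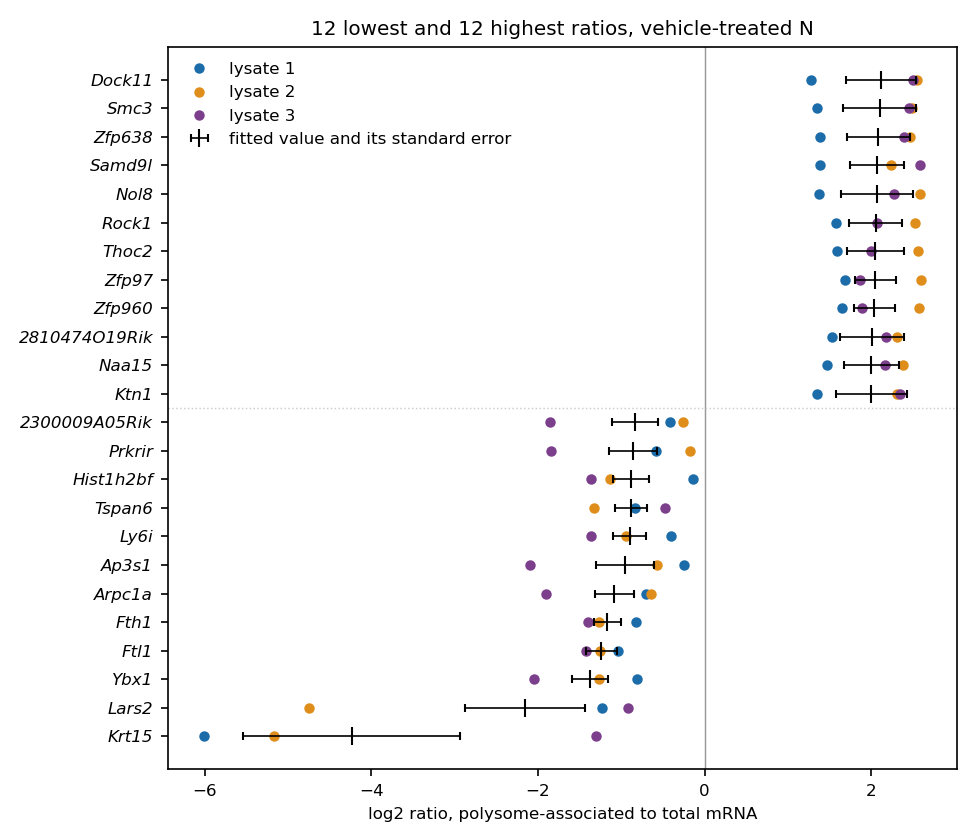
Log2 ratio of polysome-associated to total mRNA (x axis) for the 12 lowest and 12 highest named genes in vehicle-treated N organoids. Coloured points are the 3 lysates and black bars the fitted value with its standard error, and Krt15 is at the far left while the 12 highest genes lie between 2.00 and 2.11.

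At the other end, the 12 highest genes had fitted log2 ratios of 2.00 to 2.11. The rule for named genes required a call and the same sign in 3 of 3 lysates. Each of the 12 kept its call without lysate 3. Smc3, the cohesin subunit that helps hold sister chromatids together, had 14.01, 7.244 and 9.252 CPM in total and 35.74, 40.71 and 50.76 CPM in polysome-associated mRNA. Its log2 ratio was 2.10 ± 0.44 (adjusted p = 0.0203), a fold of 4.29. Rock1, a kinase that drives actomyosin contraction, had 20.93, 6.82 and 12.3 CPM in total and 62.44, 39.17 and 51.68 CPM in polysome-associated mRNA, for a log2 ratio of 2.05 ± 0.32 (adjusted p = 0.0134). The polysome-associated libraries lay above the total ones without overlap in both cases.

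Dock11, a guanine nucleotide exchange factor, had the highest value, 2.11 ± 0.42 (adjusted p = 0.0187), at levels of 1.776 to 16.75 CPM. Naa15, the auxiliary subunit of an N-terminal acetyltransferase, was at 2.00 ± 0.33 (adjusted p = 0.0136), and Thoc2, of the complex that readies mRNA for export, at 2.05 ± 0.34 (adjusted p = 0.0136). Ktn1 (kinectin), Samd9l, Nol8 and 2810474O19Rik were the others with no zinc fingers in their name. The zinc finger gene Zfp638 was at 2.09 and Zfp97 at 2.05, with Zfp960 close to it. Zfp97 had 30.09, 46.21 and 56.31 CPM and Zfp960 28.96, 45.05 and 55.06 CPM in polysome-associated mRNA. Both encode 546 residues, and how many reads match both genes was not tested, so they may not be 2 separate measurements.

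As a group these 12 genes had long coding sequences of low GC content, although Zfp97 and Zfp960 encode 546 residues. The median of the 12 was 1340 residues and 39.7% GC, against 461 residues and 53.1% over all tested genes. The 12 lowest had a median of 219 residues and 52.4% GC. Called genes showed the same contrast in length, with a median of 855 residues for the 1010 higher and 266 for the 727 lower. Median GC was 44.6% for the higher genes and 51.9% for the lower.

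The median log2 ratio by coding length was -0.23 ± 0.16 (SD, n = 3 lysates) for 1283 genes of 100 to under 200 residues and -0.14 ± 0.15 for 3249 genes of 200 to under 400. It was 0.03 ± 0.11 for 4258 genes of 400 to under 800 residues, 0.21 ± 0.14 for 1893 genes of 800 to under 1600 and 0.32 ± 0.44 for 504 genes of 1600 or more. Lysates 1 and 2 had their highest medians in the longest bin (0.30 and 0.77), whereas lysate 3 was at 0.16 for 400 to under 800 residues, 0.11 for 800 to under 1600 and -0.11 for the longest. The 213 genes under 100 residues had 0.10, -0.29 and -0.46 in lysates 1 to 3. Of the longest bin 32.3% were higher and 0.198% lower, against 0.779% higher and 15.7% lower at 100 to under 200 residues. The share of lower genes did not follow length throughout, with 7.98% under 100 residues and 10.5% at 200 to under 400. Without lysate 3, 277 of the 504 longest were higher and 0 lower. Across 11400 genes the fitted ratio had a Pearson r of 0.408 and a Spearman rho of 0.467 with log2 coding length. For the ratios of lysates 1, 2 and 3 the Pearson r was 0.273, 0.5 and 0.0984. These values describe genes of shared libraries that are not independent replicates.

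**Figure D3:**
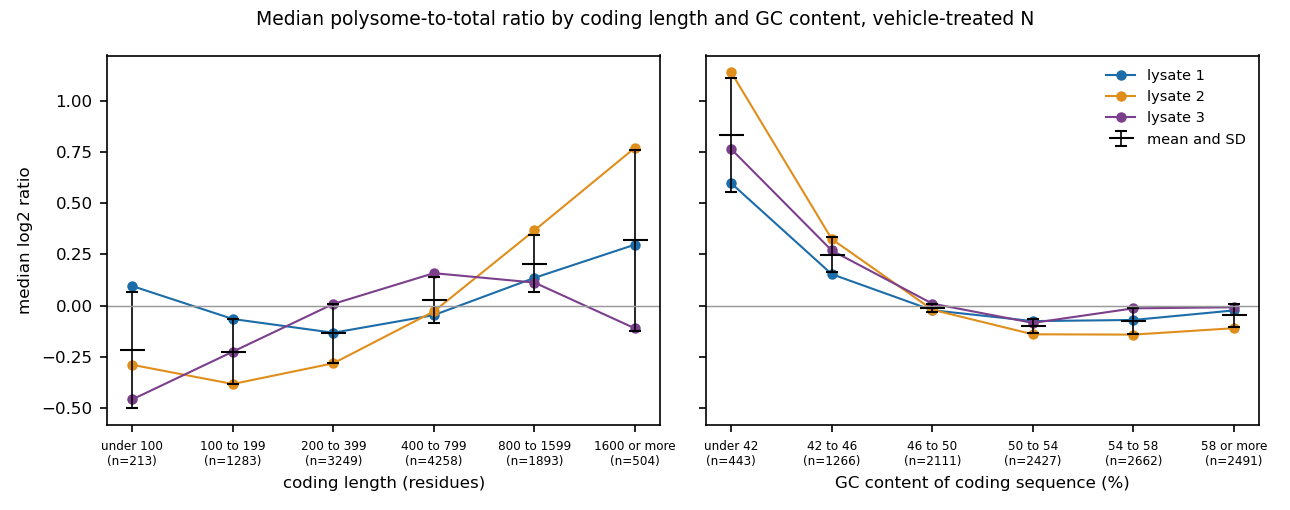
Median log2 ratio of polysome-associated to total mRNA (y axis) in bins of coding length and of coding-sequence GC content (x axes, number of genes in brackets), with a coloured line per lysate and the mean and SD of the 3 in black. The lowest GC bin reached 0.60 to 1.14 in the 3 lysates, and lysate 3 had its highest length median at 400 to under 800 residues and lower ones in the 2 longer bins.

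GC content of the coding sequence, examined after values were seen, separated the genes in every lysate. The 443 genes under 42% GC had medians of 0.60, 1.14 and 0.77 in lysates 1, 2 and 3 (0.84 ± 0.28, SD), and 58% of them were higher. Genes of 42 to 46% had 0.25 ± 0.09, and the 4 bins from 46% upward lay between -0.10 and -0.01. Genes of low GC were also less abundant, with a median of 8.62 CPM in total mRNA under 42% against 23.02 CPM at 58% or more. Among genes of at least 10 CPM the lowest bin still had 0.36 ± 0.09. The part of library preparation, which can favour fragments by GC content, was not tested.

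The ratio was highest where a long coding sequence and a low GC content met. Of 430 genes with 800 or more residues and under 46% GC, 75.3% were higher and 0% lower, and their median was 1.06 ± 0.50 (SD). Of 977 genes of that length with 54% GC or more, 4.2% were higher. Among short genes of under 200 residues and under 46% GC, 3.5% were higher and 16.5% lower, so few short genes of low GC had a high ratio.

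**Figure D4:**
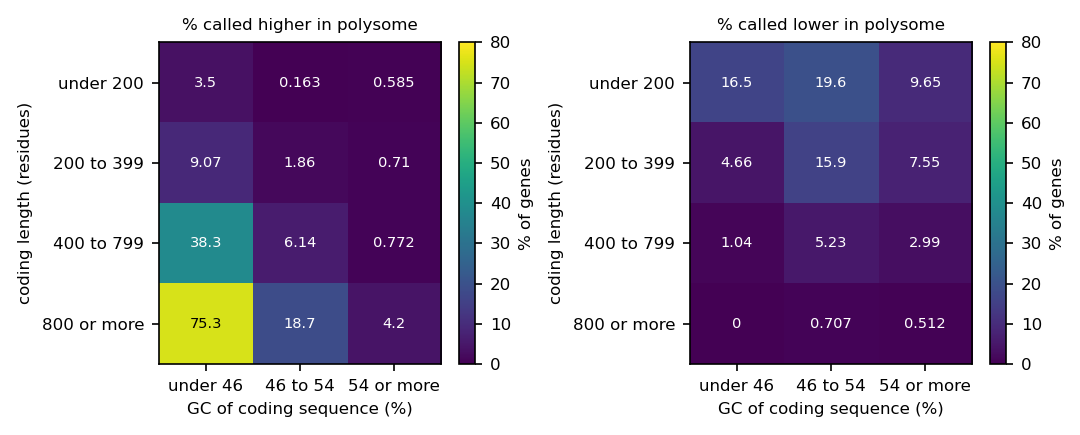
Percentage of genes called higher (left) and lower (right) in polysome-associated mRNA for each class of coding length (rows) and GC content (columns), on a colour scale from 0 to 80%. The highest cell is the long genes of low GC, with 75.3% called higher.

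Of 18 tested genes of SMC proteins, cohesin and condensin, which fold and hold chromosomes and were listed after values were seen, 14 were higher (77.8%, against 8.83% of all genes) and 0 lower, with a median of 1.36 (1.02, 1.98 and 1.03 in lysates 1 to 3). Smc1a had 27.74, 16.04 and 19.17 CPM in total and 52, 55.71 and 58.98 CPM in polysome-associated mRNA, and Smc4, Smc5, Smc6, Stag2 and the loader Nipbl had log2 ratios of 1.66 to 1.84. Rad21, the cohesin subunit that closes the ring, had 129.5, 158.4 and 109.7 CPM in total and 118.1, 157.1 and 107.8 CPM in polysome-associated mRNA, a log2 ratio of -0.06 (adjusted p = 0.895). The condensin subunits Ncapd2 (0.22, adjusted p = 0.536), Ncapd3 (-0.08, adjusted p = 0.876) and Ncaph (0.14, adjusted p = 0.823) were the others without a call. Rad21, Ncaph, Ncapd2 and Ncapd3 encode 635, 731, 1392 and 1506 residues at 48.8, 48, 53.9 and 47.1% GC. The members called higher encode 1097 (Smc6) to 2798 (Nipbl) residues at 38.6% (Smc4) to 47.6% (Smc1a) GC. Of all tested genes with 800 or more residues and under 46% GC, 75.3% were higher. The part of length and GC in these calls was not tested.

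Golgins and other long coiled-coil proteins, also listed afterwards, had 11 of 17 higher (64.7%, against 8.83% of all genes) and 0 lower, with a median of 1.24 (1.12, 2.01 and 0.47 in lysates 1 to 3). Pcm1, a scaffold around the centrosome, had 9.011, 5.044 and 7.769 CPM in total and 25.54, 28.8 and 27.84 CPM in polysome-associated mRNA, and a log2 ratio of 1.95 ± 0.34 (adjusted p = 0.0136). Eea1, a tether of early endosomes, was at 1.79 and Golgb1 (giantin) at 1.24. The 6 members without a call were Cep350 at 0.74, Golga3 at 0.48, Golga1 at 0.15, Golga2 at 0.08, Golga5 at 0.00 and Pcnt at -0.02. Pcnt encodes 2916 residues at 55.6% GC and Golga3 1447 at 51.5%, and the part of length and GC was not tested. Without lysate 3 Cep350 and Golga3 were called higher (adjusted p = 0.0343 and 0.158).

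Zinc finger genes of the Zfp symbol, mostly DNA-binding repressors, were a large group with high ratios. Of 332 tested, 124 were higher (37.3%, against 8.83% of all genes) and 2 lower, and the median was 0.35 (0.28, 0.51 and 0.39 in lysates 1 to 3); without lysate 3, 138 were higher and 3 lower. Zfp638 had 7.482, 4.037 and 6.995 CPM in total and 19.61, 22.37 and 36.8 CPM in polysome-associated mRNA. The lowest was Zfp422, at -0.59 (adjusted p = 0.0345). Among genes of 400 to under 800 residues with under 46% GC, the 131 Zfp genes had a median of 0.95 with 93 higher, and the 540 other genes 0.31 with 164 higher. At 54% GC or more, 0 of 47 Zfp genes were higher and their median was -0.04.

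Cytosolic ribosomal proteins, of which 71 were tested, had 26 lower (36.6%, against 6.36% of all genes) and 0 higher, and the median was -0.37. The medians of lysates 1, 2 and 3 were -0.12, -0.32 and -0.67, and without lysate 3 the list had 0 lower and 1 higher. Without lysate 2 only 13 genes of the whole table were lower, so at least 13 of the 26 calls were lost there too. Rps6, a target of growth signalling in the small subunit, had 4687, 5010 and 7998 CPM in total and 4106, 3931 and 4698 CPM in polysome-associated mRNA, and a log2 ratio of -0.44 ± 0.18 (adjusted p = 0.226; -0.24 and 0.546 without lysate 3). Rps4x was lowest at -0.70 (adjusted p = 0.0915) and Rpl7 highest at 0.05 (adjusted p = 0.932).

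The starts of 3 of these mRNAs are shown because the TOP motif defines the class, from RefSeq promoters on GRCm38.p6, with the run of pyrimidines from the first base in capitals. They lie at chr4:86857348-86857367 on the minus strand, chr19:6057947-6057966 on the plus strand and chr17:33955646-33955665 on the minus strand.
Rps6: CTCTTTTTCgtgacgcctcc
Fau: CTTCCTCTTTCTTgactcca
Rps18: CTCTCTTCCacaggaggcct
A C followed by 4 pyrimidines at the annotated start was found in 12 of 52 ribosomal protein genes with an entry (23.1%) and in 255 of 8848 tested genes (2.88%), read on the gene's strand only. The 12 had a median log2 ratio of -0.30 and the 40 others -0.36. Annotated starts can differ from those used in these cells, and a match is a description only.

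Other mRNAs known for a TOP motif had 3 of 17 lower (17.6%, against 6.36% of all genes) and 0 higher, with a median of -0.21. The medians of lysates 1 to 3 were -0.12, -0.02 and -0.60. Without lysate 3 the list had 1 lower and 2 higher, and a median of -0.06 that was near that of all genes (-0.02). Tpt1, a small protein of growth control, had 8640, 10936 and 17416 CPM in total and 6458, 7108 and 8675 CPM in polysome-associated mRNA, and fell by 0.68 (adjusted p = 0.0402; -0.49 and 0.146 without lysate 3). Eef1a1, the elongation factor that delivers tRNA, was at -0.33 and Eef2, which moves the ribosome along, at -0.06, both without a call. The poly(A) binding protein gene Pabpc1 had 0.06, 0.29 and -1.38 in lysates 1 to 3, an example of the contrast between lysate 3 and the others.

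Of 35 initiation factor genes, 3 were higher (8.57%) and 2 lower (5.71%), shares close to the 8.83% and 6.36% of all genes. Without lysate 3 there were 3 and 4, and the median with all lysates was -0.15. Eif3a, the largest subunit of the scaffold eIF3, had 127.7, 43.84 and 73.07 CPM in total and 285.9, 189.6 and 214.9 CPM in polysome-associated mRNA, and a log2 ratio of 1.61 ± 0.31 (adjusted p = 0.0178). Eif4a1 and Eif4e, of the cap-binding complex, had -0.13 and -0.21 without a call. Of 17 aminoacyl-tRNA synthetases, 2 were higher (11.8%, near the 8.83% of all genes), Eprs at 1.31 (adjusted p = 0.0238) and Lars at 0.95 (adjusted p = 0.13), and 0 were lower, and without lysate 3 the call of Lars was lost (adjusted p = 0.287). The medians were -0.10 and -0.05 in lysates 1 and 2 and 0.52 in lysate 3.

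Mitochondrial ribosomal proteins had 15 of 69 lower (21.7%, against 6.36% of all genes) and 0 higher. Their medians were -0.19, -0.51 and -0.06 in lysates 1 to 3. In the fit without lysate 3, 22 were lower, where 9.73% of all genes were. Without lysate 2 only 13 genes of the whole table were lower, so not all 15 calls were kept there. Mrps5 was at -0.57 (adjusted p = 0.0431) with all lysates and -0.67 (adjusted p = 0.0312) without lysate 3. Respiratory chain subunits had 7 of 73 lower (9.59%, against 6.36% of all genes) and 0 higher with a median of -0.26, and 23 of 73 lower without lysate 3. Atp5g1, of the ATP synthase ring, was at -0.66 (adjusted p = 0.0537). Mitochondrially encoded genes were not analysed here.

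Genes of mitosis were found on both sides. Of 25 tested, 9 were higher (36%, against 8.83% of all genes) and 6 lower (24%, against 6.36%). Cenpe, the kinetochore motor, had 1.642, 1.263 and 1.204 CPM in total and 5.894, 10.51 and 2.953 CPM in polysome-associated mRNA, a log2 ratio of 2.07 ± 0.35 (adjusted p = 0.0136). Mki67, the proliferation marker that coats mitotic chromosomes, was at 1.71 (adjusted p = 0.0531), and Kif11, Cenpf, Kif4 and Top2a at 1.09 to 1.37. Aurkb, the kinase of the chromosomal passenger complex, had 20.44, 23.08 and 15.27 CPM in total and 14.04, 15.61 and 9.803 CPM in polysome-associated mRNA, and fell by 0.58 (adjusted p = 0.0275). The cell cycle genes Ccnb1, Ccnb2, Cdk1, Cks2 and Ube2c were the other lower ones, at -0.37 to -0.60. Without lysate 3 the list had 9 higher and 4 lower, as the calls of Ube2c (-0.34, adjusted p = 0.357) and Cks2 (-0.26, adjusted p = 0.460) were lost. Cenpe and Mki67 encode 2471 and 3177 residues, and Aurkb and Ube2c 345 and 179.

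Of 22 cytosolic chaperones 2 were higher (9.09%, near the 8.83% of all genes) and 0 lower, and 2 higher and 2 lower without lysate 3. Of 22 chaperones and translocon genes of the endoplasmic reticulum 3 were higher (13.6%) and 1 lower (4.55%), and 3 higher and 6 lower without lysate 3, where 12.4% and 9.73% of all genes were. Hsp90aa1, the inducible cytosolic Hsp90, had 343.5, 144.1 and 178.1 CPM in total and 647.1, 493.3 and 654.2 CPM in polysome-associated mRNA, a log2 ratio of 1.52 ± 0.33 (adjusted p = 0.0223). Its constitutive partner Hsp90ab1 had 3626, 3527 and 4207 CPM in total and 3134, 3488 and 2948 CPM in polysome-associated mRNA, a ratio of -0.25 (adjusted p = 0.393). The reticulum form Hsp90b1 was at 1.42 ± 0.42 (adjusted p = 0.083), of which lysate 3 had 2.36 and lysate 1 had 0.59. Hspa8 and Hspa5, of the Hsp70 family, had -0.21 and 0.40 without a call.

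**Figure D5:**
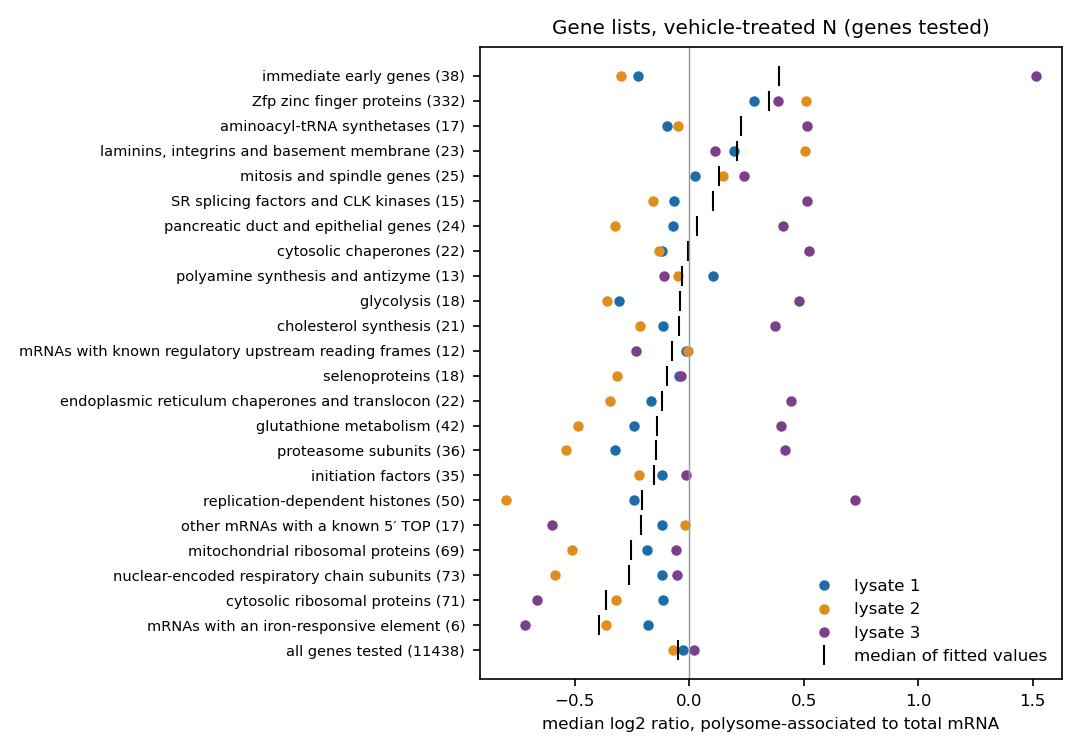
Median log2 ratio (x axis) of each gene list (rows, number of genes tested in brackets) in the 3 lysates of vehicle-treated N organoids, with the median of the fitted values as a black bar. Lysate 3 lies to the right of lysates 1 and 2 for immediate early genes, proteasome and glycolysis, and to their left for cytosolic ribosomal proteins.

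For the remaining lists most members did not pass. Over all genes 8.83% were higher and 6.36% lower, and 12.4% and 9.73% without lysate 3. mRNAs with known regulatory upstream reading frames had 2 of 12 higher (16.7%), Eprs and Ibtk (0.68, adjusted p = 0.191), and 0 lower. Atf4, the stress factor in this class, was at 0.13 (adjusted p = 0.726). Polyamine genes had 1 of 13 lower (7.69%), and the median of the 18 selenoproteins was -0.10 with 3 lower (16.7%). Glutathione metabolism had 5 of 42 lower (11.9%, against 6.36% of all genes) and 0 higher, and proteasome subunits 4 of 36 lower (11.1%) and 0 higher. Without lysate 3 these became 19 and 20 lower, with 9.73% of all genes lower in that fit, and the medians were positive in lysate 3 (0.40 and 0.42) and negative in lysates 1 and 2. Laminins and integrins, which anchor cells to the basement membrane, had 3 of 23 higher (13%, against 8.83% of all genes; 5 without lysate 3, against 12.4%) and 0 lower, among them the collagen receptor Itga2 at 0.74 (adjusted p = 0.236). Glycolysis had 2 of 18 lower (11.1%, and 7 without lysate 3), and cholesterol synthesis 0 of 21 called (4 lower without lysate 3). SR splicing factors and CLK kinases had 1 of 15 lower (6.67%, and 2 without lysate 3). The duct and epithelial list had 2 of 24 higher (8.33%, Cftr at 1.09 and Onecut2 at 0.98) and 1 lower (4.17%, Krt18), which became 3 and 7 without lysate 3. Replication-dependent histones had 3 of 50 lower (6%, and 9 without lysate 3). Histone genes have close copies, and reads with several matches were dropped before counting, so their values are uncertain. Hist1h2an had ratios from -5.51 to 7.71 between lysates, and the source of that spread was not tested. Immediate early genes had 2 of 38 lower (5.26%) with medians of -0.22, -0.30 and 1.51 in lysates 1 to 3.

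The ratio in vehicle-treated N was then set beside that in vehicle-treated KP, whose libraries were on other runs, so run and organoid type cannot be told apart. The interaction of fraction and organoid type called 0 of 11438 genes (0%) with edgeR, the smallest adjusted p being 0.433, while 1296 had an unadjusted p under 0.05. DESeq2 called 350. Without lysate 3 of vehicle-treated N, edgeR called 2147 genes (18.8%), 1191 with a higher and 956 with a lower ratio in N, the smallest adjusted p being 0.115. In the fit without lysate 3, 870 of 2397 genes of 800 or more residues had a higher ratio in N and 7 a lower one, and of 1496 genes under 200 residues 7 were higher and 252 lower.

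Per lysate, the median log2 ratio of genes of 800 or more residues minus that of genes under 200 was 0.20, 0.82 and 0.32 in vehicle-treated N and -0.42, -0.26 and 0.00 in vehicle-treated KP, with no overlap. The means differed by 0.68 (exact permutation test, two-sided, p = 0.1, the smallest that 3 against 3 can give; a measure chosen after values were seen). CR-31-treated N had 0.29, 0.34 and -0.14 and CR-31-treated KP had 0.35, -0.03 and 0.04, and both overlapped with vehicle-treated N (exact permutation p = 0.5 and 0.3). For low GC the organoid types were alike in sign: genes under 42% GC had 0.84 ± 0.28 in N and 0.54 ± 0.28 in KP.

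With all lysates Ybx1 and Fth1 had similar values in both types, -1.37 and -1.17 in N and -1.38 and -0.93 in KP. Without lysate 3 they were at -1.01 and -1.02 in N, and the differences from KP did not pass (adjusted p = 0.433 and 0.851). Ftl1 was at -1.24 in N and -0.40 in KP, a difference of -0.84 that did not pass (adjusted p = 0.433) with all lysates and did without lysate 3 (-0.72, adjusted p = 0.201). Krt15 was at -4.23 in N and -0.47 in KP (adjusted p of the difference 0.437; 0.157 without lysate 3). Golgb1 and Itga2 had ratios 1.37 and 1.73 higher in N in the fit without lysate 3 (adjusted p = 0.130 and 0.140). With all lysates the differences were 1.03 and 1.39 and did not pass (adjusted p = 0.433 for both). Against CR-31-treated N, edgeR called 0 genes, the smallest adjusted p being 0.736, with 328 genes at an unadjusted p under 0.05, and DESeq2 called 0 as well.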

How the data were processed

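Messenger RNA of polysome-associated and total fractions was sequenced in 24 libraries of 12 lysates. Per the study's methods the authors aligned read pairs with HISAT2 at default settings, dropped reads with several matches and counted coding RefSeq transcripts with RPKMforgenes, and they deposited raw counts per gene and RPKM (those counts per length and library) side by side. The submitters' notes name a human build although the genes are mouse RefSeq genes, so no coordinate was taken from the table. All tests used the counts, and the RPKM values entered none.

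Entries with 1 symbol found once and a count of at least 1 in all 24 libraries were kept, 11438 of 19895. Entries with several symbols held 8.69 to 10.6% of the counts of the 6 libraries. edgeR 4.0.16 (R 4.3.3; TMM factors, quasi-likelihood test) was fitted to all 24 libraries with the 12 lysates as a block and a fraction effect per condition, and p-values were adjusted by Benjamini-Hochberg over all tested genes. Every adjusted p given is from edgeR unless DESeq2 (1.42.0) is named. Pairs were set by the replicate number in the labels. Deviations of the 2 fractions from their group means correlated at 0.871, 0.631 and 0.546 for replicates 1, 2 and 3, which does not verify the pairs. Ratios of single lysates used a prior count of 0.5. Genes were named as the 12 highest and 12 lowest called genes with 1 sign in 3 lysates and a mean of at least 5 CPM, the 2 highest and 2 lowest of each list and a set of known mRNAs. Epas1, Ccnb1, Ccnb2, Cdk1, Cks2, Cenpf, Kif11, Kif4, Top2a, Fos, Rps18, the genes with an element match in the 5′ UTR and the members of lists drawn up later fall outside that rule and were chosen after their values were seen. Coding models of GENCODE M21 were found for 11400 genes. The members, lists and comparisons were chosen with earlier results of these data known. Alternatives were other scaling factors, filters, DESeq2, other uses of the block and leaving out lysates, and the code was tested on simulated counts. An allele of the tumour organoids is not reported here.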

Additional observations from a re-analysis of the deposited data

How the results depend on the processing

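The numbers of genes called depended most on the lysates. Leaving out 1 lysate of vehicle-treated N at a time gave 187 to 1414 higher and 13 to 1113 lower genes, the lowest without lysate 2 and the highest without lysate 3. Without both N lysates numbered 3, chosen after seeing the data, 1720 were higher and 2364 lower. A fit of the 6 libraries alone with the replicate block gave 558 higher and 18 lower, and a fit with no replicate block 386 and 55. At an adjusted p under 0.05 there were 361 and 49. With no scaling factors 242 genes were lower, and with no filter on low counts 480. Higher genes made up 58.1% of calls in the reported fit, 84.8% with no scaling factors, 96.9% in the 6 libraries alone, 87.5% with no replicate block, 93.5% without lysate 2 and 42.1% without both lysates numbered 3. With no scaling factors the median of all genes moved from -0.05 to 0.08, and list medians moved to 0.05441 (upstream reading frames), 0.09923 (polyamine genes), 0.479 (Zfp genes), -0.02236 (initiation factors) and 0.2629 (mitosis). The median of the tetraspanins was -0.4473 without both lysates numbered 3. For the ratio in N against KP, DESeq2 called 350 genes, leaving out 1 lysate gave 0 to 2147, and leaving out both lysates numbered 3 gave 4097. Against CR-31-treated N that last setting called 1 gene. Of 144 named genes, 44 lost their call without lysate 2, 13 without lysate 3, 11 without lysate 1 and 35 with no replicate block, and none of the results recomputed under these alternatives changed direction while called. The causes were not tested.

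With 3 lysates, of which lysate 3 stood apart, small ratios could not be told from the spread, and the ratio gives no absolute share of an mRNA on ribosomes.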
